A study of Mus musculus with 10 samples.

Results

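The 10 genes described here encode the muscle acetylcholine receptor (Chrna1, Chrnb1, Chrnd, Chrne and Chrng) and proteins that build and hold the neuromuscular junction (Musk, Rapsn, Dok7, Lrp4 and Ncam1). They were chosen by name from 22180 measured genes, with earlier results of these data known. Counts of them beside shares over all genes are therefore a description and no test. For each gene the probe set annotated with that symbol alone was taken, or the brightest where there were several. All 10 were found, each with 1 such probe set. A further Ncam1 probe set, annotated also with another gene, was left out. The tissue was the gastrocnemius, a calf muscle of mostly fast fibres, from male NMRI mice, an outbred stock, with 1 array per mouse. The carnitine group (n = 5) ate a natural-ingredient diet with 1000 mg of L-carnitine added per kg, and the control group (n = 5) ate that diet with nothing added, which held under 5 mg carnitine per kg. The mice arrived at 3 weeks of age, and feeding began after 1 week of acclimatization. The study killed mice at 9, 15 and 18 months, and the age at which each mouse used for an array was killed is not stated, so arrays may differ in age. The arrays were picked at random from each diet group, to ask what lifelong carnitine does to the muscle transcriptome.

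At the junction, acetylcholine from the motor nerve opens a 5-subunit receptor packed into the muscle membrane beneath the nerve ending. The fetal receptor carries the gamma subunit (Chrng), which is replaced after birth by epsilon (Chrne), while alpha, beta and delta (Chrna1, Chrnb1 and Chrnd) are shared by both forms. Agrin from the nerve binds LRP4, which switches on the receptor kinase MuSK; DOK7 activates MuSK from inside the fibre, and rapsyn (Rapsn) anchors the receptors. In innervated adult fibres these genes, apart from Chrng, are read mostly by the few nuclei under the nerve ending. After loss of the nerve Chrng, Chrna1, Musk and the adhesion molecule Ncam1 are known to be read along the whole fibre.

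Values are RMA signals on the log2 scale, so a step of 1 is a doubling, and differences are carnitine minus control. Probe sets differ in how brightly they report a transcript, so the levels of the junction genes were not ranked against each other. Chrng was set against all probe sets and against olfactory receptor genes, as a rough guide to weak signal. Correlations between arrays, across genes, ran from 0.973 to 0.994. All 15 markers of skeletal muscle fibres lay above the median probe set level of 5.80, with mean signals over the list of 13.05 to 13.15 on carnitine and 13.07 to 13.10 on control arrays. Control replicate 5 stood apart, with an array median of 5.96, against 5.72 to 5.86 on the others, and an interquartile range of 2.20, against 2.39 to 2.59.

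None of the 10 genes differed between the diets past the threshold, an adjusted p of 0.05 in limma over all 22180 genes; 0 genes of the whole array passed it (0.000%). Of the 10 junction genes the nearest to it was Chrng, the fetal subunit, whose mean was lower in carnitine muscle by 0.42 (adjusted p = 0.712 in limma). Of the 10 genes, 5 had a negative and 5 a positive difference, with a median of 0.03, while 52.3% of all genes had a negative difference and their median was -0.01. An unadjusted limma p under 0.05 was found for 1 of the 10 genes, Chrng, against 6.97% of all genes in either direction and 3.83% in the lower direction. Over all genes those p-values fell on 696 higher and 850 lower genes, and on 887 higher and 533 lower after each array was centred on its median. Among the 12912 genes above the median probe set level, fitted on their own, they fell on 599 higher and 245 lower. In none of the 10 genes did the carnitine and control values fall apart without overlap; this happened in 1.11% of all genes, 0.505% with carnitine higher and 0.609% with carnitine lower.

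**Figure D1:**
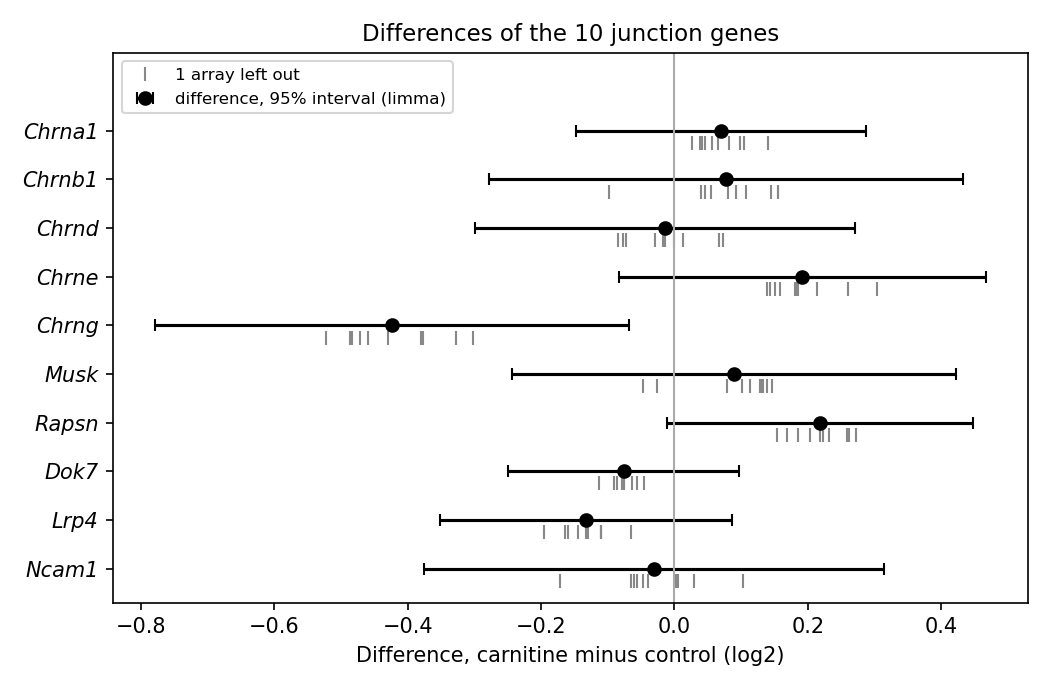
Difference of each junction gene, carnitine minus control, on the log2 scale (x axis) with its 95% interval from limma, and below it the 10 differences with 1 array left out. The interval of Chrng runs from -0.78 to -0.07, and the intervals of the other 9 genes include 0.

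Chrng, the gamma subunit of fetal and denervated muscle, had signals of 5.52, 5.72, 6.09, 5.84 and 5.31 in carnitine muscle (replicates 1 to 5) and 5.88, 5.87, 5.93, 6.31 and 6.61 in control muscle. Carnitine replicates 1, 2, 4 and 5 lay below every control, while carnitine replicate 3 lay above control replicates 1, 2 and 3, so the groups overlapped. The means were 5.70 ± 0.30 and 6.12 ± 0.33 (carnitine and control, SD, n = 5 each), a difference of -0.42 (SE 0.17). An exact two-sided permutation test over the 252 assignments of 5 of 10 arrays gave p = 0.0794. The unadjusted limma p was 0.0227, and it was above 0.05 when control replicate 4 or 5 or carnitine replicate 1 or 5 was left out, from 0.0537 to 0.0688. The difference stayed negative in each of these, at -0.38 and -0.30 on leaving out control replicate 4 or 5, and at -0.38 and -0.33 on leaving out carnitine replicate 1 or 5.

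The Chrng signal was weak. Its mean of 5.91 over all arrays lay just above the median probe set level, and at the 95.2 percentile of 1088 olfactory receptor genes, a family of the olfactory epithelium whose median was 3.62. The carnitine mean of 5.70 lay below the 95th percentile of those genes, 5.85, as did carnitine replicates 1, 2, 4 and 5, and the control mean of 6.12 lay above it, so the size of the difference is uncertain. On single arrays Chrng stood at the 45.5, 48.9, 57.2, 50.7 and 39.2 percentile of all probe sets in carnitine muscle, and at the 52.7, 52.8, 53.9, 60.9 and 66.8 percentile in control muscle. Its highest value was on control replicate 5, the array with the highest median. Across the 10 arrays, after each group mean was subtracted, the correlation of Chrng with the array median was r = 0.751. The median of the olfactory receptor genes was 3.54 to 3.59 on carnitine and 3.58 to 3.82 on control arrays. Chrng minus that median was 1.77 to 2.51 in carnitine and 2.25 to 2.79 in control muscle. The difference of Chrng was -0.37 after median centring and -0.41 after quantile normalization. The part of the array-wide shift in it was not tested beyond these values.

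Chrne, the epsilon subunit of the adult receptor, had the opposite sign. Its signals were 7.97, 8.09, 7.78, 8.19 and 8.25 in carnitine muscle and 7.82, 7.84, 8.31, 7.65 and 7.70 in control muscle. In 4 carnitine mice Chrne lay above 4 of the controls, but control replicate 3 had the highest value of all and carnitine replicate 3 lay below 3 of the controls. The means were 8.06 ± 0.19 and 7.86 ± 0.26 (carnitine and control, SD, n = 5 each), a difference of 0.19 (SE 0.13, adjusted p = 0.730 in limma, exact permutation p = 0.206). Without control replicate 3 the difference was 0.30 (adjusted p = 0.581), and after cyclic loess it was 0.11.

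Chrng minus Chrne, the fetal against the adult subunit on each array, was -2.45, -2.37, -1.69, -2.35 and -2.94 in carnitine muscle and -1.94, -1.97, -2.38, -1.34 and -1.09 in control muscle. Only the change between arrays can be read from it, since the brightness of the probe sets sets its level. The lowest value was that of carnitine replicate 5 and the highest that of control replicate 5, and the groups overlapped through carnitine replicate 3 and control replicate 3. The means were -2.36 ± 0.45 in carnitine and -1.74 ± 0.52 in control muscle, a difference of -0.62 that ranged from -0.78 to -0.45 when 1 array was left out and was -0.48 after cyclic loess. The subtraction does not remove the array-wide shift, since Chrne correlated with the array median at r = -0.290, against 0.751 for Chrng. It was calculated as a description, with no test.

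**Figure D2:**
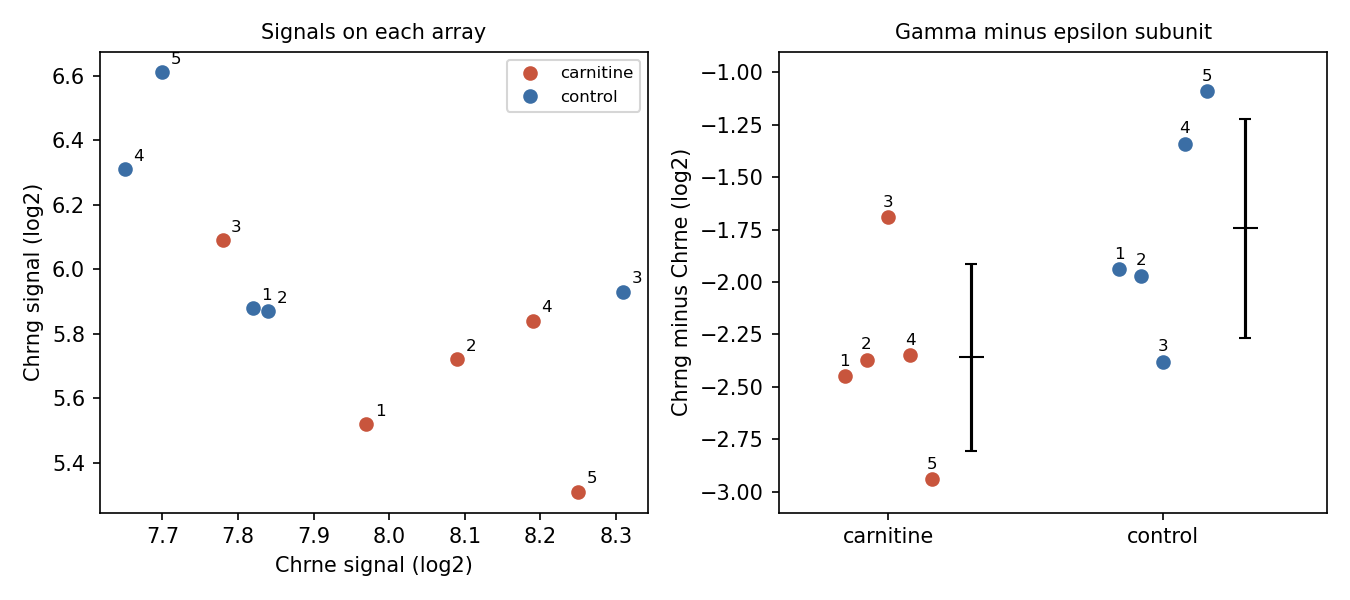
Left, Chrng signal (y axis, log2) against Chrne signal (x axis, log2) on each array, numbered by replicate; right, Chrng minus Chrne (log2) by group, with points for arrays and bars for mean ± SD (n = 5 each). Carnitine values of the difference run from -2.94 to -1.69 and control values from -2.38 to -1.09, so the groups overlap.

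The sequence before the annotated start of Chrng, Chrne and Chrna1 is shown because the fetal and adult subunits are known to be driven through different elements: E-boxes (CANNTG), which myogenic factors such as myogenin bind, and the N-box (CCGGAA), which GABP binds at synaptic nuclei. The 250 bases before the start were read 5′ to 3′ on the strand of the gene from RefSeq promoters (GRCm38.p6), which covered 6 of the 10 genes. Chrng lies on the plus strand at chr1:87205561-87205810, Chrne on the minus strand at chr11:70619195-70619444 and Chrna1 on the minus strand at chr2:73580339-73580588. Capitals mark each E-box and N-box found on either strand, and none overlapped.
Chrng: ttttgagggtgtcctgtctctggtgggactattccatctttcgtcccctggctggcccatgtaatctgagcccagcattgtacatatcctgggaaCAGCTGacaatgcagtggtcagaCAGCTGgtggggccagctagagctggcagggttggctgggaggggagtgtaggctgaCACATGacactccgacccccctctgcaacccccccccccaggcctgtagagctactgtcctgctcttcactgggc
Chrne: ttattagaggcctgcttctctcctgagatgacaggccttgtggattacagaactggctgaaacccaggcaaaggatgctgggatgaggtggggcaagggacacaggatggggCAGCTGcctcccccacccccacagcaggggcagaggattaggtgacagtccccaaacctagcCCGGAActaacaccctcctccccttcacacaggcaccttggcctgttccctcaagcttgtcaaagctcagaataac
Chrna1: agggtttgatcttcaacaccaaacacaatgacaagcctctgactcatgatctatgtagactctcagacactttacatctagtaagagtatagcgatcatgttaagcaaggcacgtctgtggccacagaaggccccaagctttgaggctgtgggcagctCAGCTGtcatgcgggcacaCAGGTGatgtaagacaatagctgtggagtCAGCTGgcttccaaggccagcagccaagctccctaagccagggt
Chrng and Chrna1 each held 3 E-boxes and no N-box, while Chrne held 1 E-box, 138 bases before the start, and 1 N-box, 76 bases before it. Both Chrng matches nearest to each other, 155 and 132 bases before the start, and both outer Chrna1 matches, 92 and 44 bases before it, read CAGCTG, as does the Chrne match. Chrnb1 and Musk held 3 E-boxes each and Dok7 1 or 0, depending on the start, and none of them held an N-box. An E-box was found in 66.2% of 32851 RefSeq promoter windows of this length, at least 3 in 12.2%, and an N-box in 12%. A match is a run of letters and does not show that a factor binds there. Gabpa and Gabpb1, which encode the GABP subunits, differed by 0.04 and -0.01, and Myog, which encodes myogenin, by 0.09 (adjusted p above 0.05 in limma for each).

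The subunits common to both receptor forms had smaller differences. Chrna1, the alpha subunit that binds acetylcholine, had signals of 7.10, 7.40, 7.44, 7.50 and 7.48 in carnitine muscle and 7.14, 7.45, 7.43, 7.19 and 7.36 in control muscle. Carnitine replicate 1 was the lowest array and the other 4 carnitine values lay within 0.1 of each other, inside or just above the control range. The difference was 0.07 (SE 0.10, 95% interval -0.15 to 0.29, adjusted p = 0.857 in limma). It ran from 0.0265 without control replicate 1 to 0.14 without carnitine replicate 1, and was 0.0152 after quantile normalization.

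Chrnb1, the beta subunit, had signals of 8.77, 9.23, 9.21, 9.02 and 9.17 in carnitine muscle and 8.30, 9.27, 9.12, 9.31 and 9.01 in control muscle. Control replicate 1 was far below the rest, and the control range enclosed every carnitine value. The difference of 0.08 (SE 0.17, 95% interval -0.28 to 0.43, adjusted p = 0.904 in limma) became -0.10 without control replicate 1, and -0.03 after cyclic loess.

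Chrnd, the delta subunit, whose gene lies next to Chrng on chromosome 1, had signals of 6.32, 6.67, 6.73, 6.95 and 6.68 in carnitine muscle and 6.45, 6.79, 6.43, 6.74 and 7.01 in control muscle. The groups covered nearly the same range, with control replicate 5 highest and carnitine replicate 1 lowest. The difference was -0.01 (SE 0.13, 95% interval -0.30 to 0.27, adjusted p = 0.982 in limma), and it was 0.07 without control replicate 5.

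**Figure D3:**
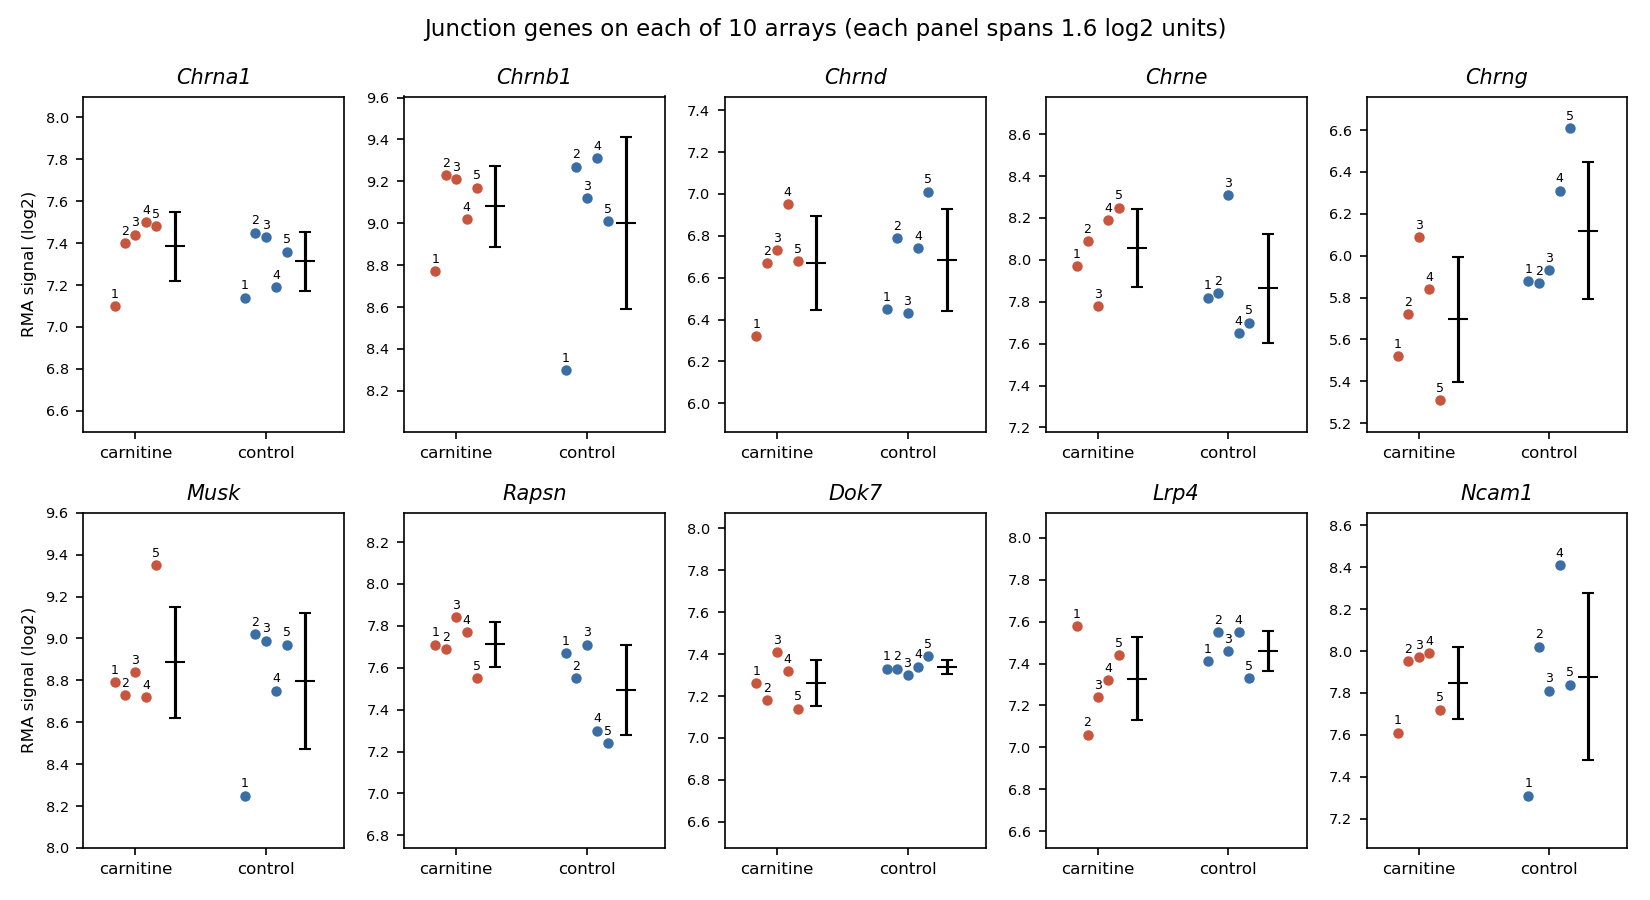
RMA signal (y axis, log2) of each junction gene on the carnitine and control arrays, numbered by replicate, with bars for mean ± SD (n = 5 each). Every panel spans the same 1.6 log2 units. The groups overlap in all 10 genes, and control replicate 1 is the lowest array for Chrnb1, Musk and Ncam1.

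Among the genes that signal to or anchor the receptor, Rapsn had the largest difference. Rapsn, which encodes the protein that clusters receptors under the nerve ending, had signals of 7.71, 7.69, 7.84, 7.77 and 7.55 in carnitine muscle and 7.67, 7.55, 7.71, 7.30 and 7.24 in control muscle. Carnitine replicates 3 and 4 lay above every control and control replicates 4 and 5 below every carnitine value, with the other arrays mixed. The means were 7.71 ± 0.11 and 7.49 ± 0.21 (carnitine and control, SD, n = 5 each), a difference of 0.22 (SE 0.11, adjusted p = 0.715 in limma, exact permutation p = 0.0873). Rapsn ran against the array median, with r = -0.720 over the 10 arrays after group means were subtracted, and its difference was 0.15 without control replicate 5 and 0.15 after cyclic loess.

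Musk, the receptor kinase on which junction formation depends, had signals of 8.79, 8.73, 8.84, 8.72 and 9.35 in carnitine muscle and 8.25, 9.02, 8.99, 8.75 and 8.97 in control muscle. Carnitine replicate 5 was the highest of the 10 arrays and control replicate 1 the lowest, while the other 8 lay between 8.72 and 9.02. The difference was 0.09 (SE 0.16, 95% interval -0.24 to 0.42, adjusted p = 0.881 in limma). It was -0.03 when carnitine replicate 5 was left out, -0.05 when control replicate 1 was, and -0.01 after cyclic loess.

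Lrp4, the agrin receptor on the muscle side, had signals of 7.58, 7.06, 7.24, 7.32 and 7.44 in carnitine muscle and 7.41, 7.55, 7.46, 7.55 and 7.33 in control muscle. Carnitine replicates 2, 3 and 4 lay below every control and carnitine replicate 1 above every control. The difference was -0.13 (SE 0.10, adjusted p = 0.744 in limma, exact permutation p = 0.246), and it was -0.065 without carnitine replicate 2 and -0.082 after median centring.

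Dok7, the cytoplasmic activator of MuSK, had signals of 7.26, 7.18, 7.41, 7.32 and 7.14 in carnitine muscle and 7.33, 7.33, 7.30, 7.34 and 7.39 in control muscle. The controls lay within 0.1 of each other, and carnitine replicates 1, 2 and 5 lay below all of them. The SD was 0.11 in carnitine and 0.033 in control muscle (n = 5 each), and the difference in mean was -0.08 (SE 0.081, adjusted p = 0.804 in limma, exact permutation p = 0.206). It was -0.0455 without carnitine replicate 5, -0.026 after median centring and -0.13 after quantile normalization.

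Ncam1, a cell adhesion molecule of the synaptic membrane that spreads over the fibre after denervation and is also present on muscle stem cells, had signals of 7.61, 7.95, 7.97, 7.99 and 7.72 in carnitine muscle and 7.31, 8.02, 7.81, 8.41 and 7.84 in control muscle. Control replicates 1 and 4 were the lowest and the highest array, so the control range enclosed every carnitine value. The difference was -0.03 (SE 0.16, 95% interval -0.38 to 0.32, adjusted p = 0.965 in limma). It became 0.10 without control replicate 4.

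Some arrays were low or high in several of these genes at once. Control replicate 1 lay below every other array in Chrnb1, Musk and Ncam1, and its mean over the 10 genes was 7.36, against 7.65 to 7.67 on the other controls. Carnitine replicate 1 was the lowest of its group in Chrna1, Chrnb1, Chrnd and Ncam1, and its mean was 7.46, against 7.57 to 7.66 on the other carnitine arrays. Over the 10 arrays, after group means were subtracted, Chrnb1 varied most closely with Ncam1 (r = 0.863) and with Musk (r = 0.669). Chrng varied with Dok7 (r = 0.742) and Chrnd (r = 0.625), and against Chrne (r = -0.590). Both Chrng and Chrnd also varied with the array median (r = 0.751 and 0.740). These correlations describe 10 arrays that share one scaling, and carry no test.

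**Figure D4:**
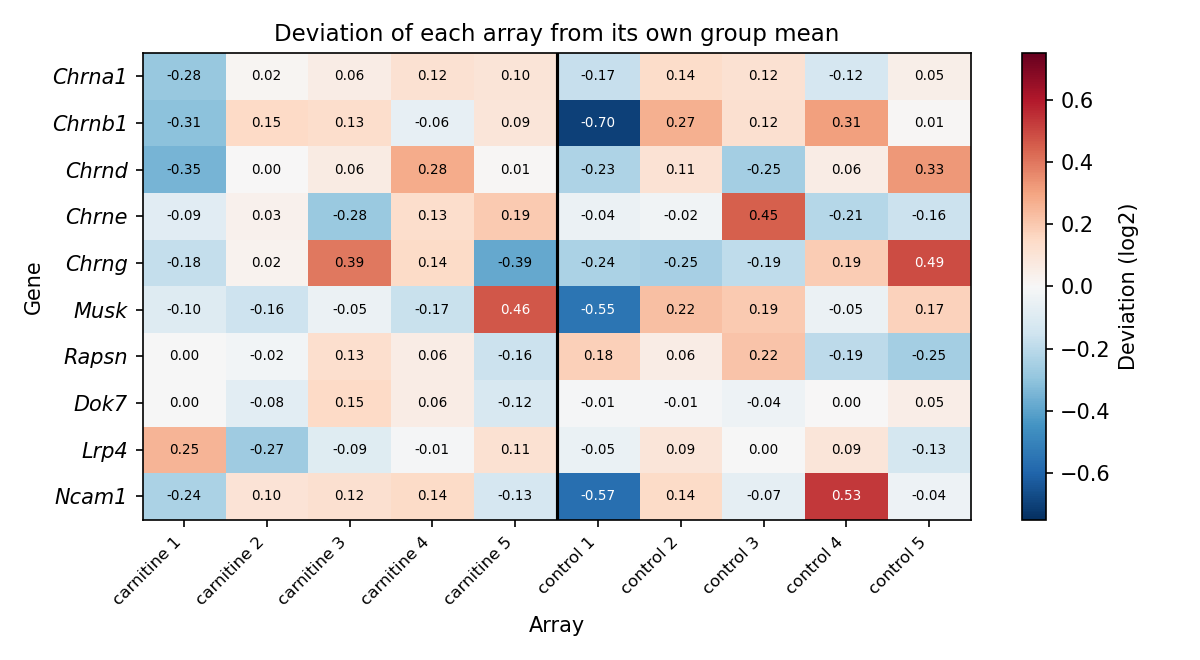
Deviation of each array (x axis) from its own group mean for each junction gene (y axis), in log2 units given in each cell. Control replicate 1 is low in Chrnb1, Musk and Ncam1, and Chrng and Chrne have opposite signs on carnitine replicates 3 and 5 and control replicates 3, 4 and 5.

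The genes outside the set whose pattern was most like that of Chrna1, by Pearson's r over the 10 arrays after group means were subtracted and among 11886 genes above the median probe set level (predicted genes, microRNAs and small nucleolar RNAs were passed over), were Ess2 (0.930), Dctn4 (0.906), Klk1b24 (0.899), Ush1c (0.885) and Trh (0.878). Those most like Chrng were Olfr1373 (0.948), Rimkla (0.947), Tprn (0.947), Plcxd1 (0.945) and R3hdml (0.944). Both lists hold the highest of 11886 correlations over 10 arrays that share one scaling, and carry no test. Chrng also varied with the array median (r = 0.751). The value of Klk1b24 is uncertain, since near-identical kallikrein genes can bind its probes.

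Of 35 further genes of the junction, 31 were measured, 19 with a positive and 12 with a negative difference, and 0 passed the adjusted threshold in limma. An unadjusted limma p under 0.05 was found for 2, B4galnt2 and Lama4, both higher in carnitine muscle, where 3.14% of all genes had such a p. This list and those below were chosen with earlier results of these data known, so their counts beside the shares over all genes are a description and no test. B4galnt2, which makes a glycan of the synaptic membrane, was the 1 gene of the list whose groups did not overlap. It stood at 6.98 to 8.07 in carnitine and 5.18 to 6.97 in control muscle, against 0.505% of all genes apart in that direction. Its difference was 1.64 (SE 0.28, adjusted p = 0.338 in limma). The adjusted limma p was 0.0040 when control replicate 2, the control nearest to the carnitine values, was left out. With any other single array left out it was 0.495 to 0.883. Lama4, the laminin alpha-4 chain of synaptic and vascular basal lamina, had signals of 8.19, 8.15, 7.85, 7.78 and 7.76 in carnitine muscle and 7.81, 7.87, 7.59, 7.58 and 7.32 in control muscle, a difference of 0.31 (SE 0.12). Carnitine replicates 1 and 2 lay above every control and the other carnitine arrays within the upper control range.

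Other genes of that list had smaller differences. Agrn, whose nerve form organises the junction, differed by -0.05 (SE 0.11), and Ache, the enzyme that clears acetylcholine, by 0.07 (SE 0.12). Alg2, of the glycosylation pathway, differed by 0.21 (SE 0.10), and Etv4, a transcription factor related to Etv5 of synaptic nuclei, by -0.20 (SE 0.11). None of these passed the threshold.

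Of 26 genes that are known to respond to denervation or to differ in young fibres, 24 were measured, 15 with a negative and 9 with a positive difference (median -0.03). None passed the adjusted threshold and 1 had an unadjusted limma p under 0.05: Nes, the intermediate filament nestin of synaptic and regenerating fibre regions, with a difference of 0.30 (SE 0.12), where 3.14% of all genes had such a p in the higher direction. Myog signals were 7.48, 7.59, 7.61, 7.65 and 7.22 in carnitine muscle and 7.07, 7.16, 7.10, 7.97 and 7.78 in control muscle. Control replicates 4 and 5, the highest in Myog, were also the highest in Chrng and had the highest array medians, 5.86 and 5.96. Sln, the inhibitor of the calcium pump, had the largest difference of the list at -0.88 (SE 0.57), with 9.45 on control replicate 4 and at most 7.26 elsewhere; without that array it was -0.25. Runx1 and Chrna9, a receptor subunit outside the junction, differed by 0.13 and -0.20, and Chrna9 by -0.11 without control replicate 5. Fbxo32 and Trim63, ubiquitin ligases that rise in denervated muscle, differed by -0.03 and 0.04.

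**Figure D5:**
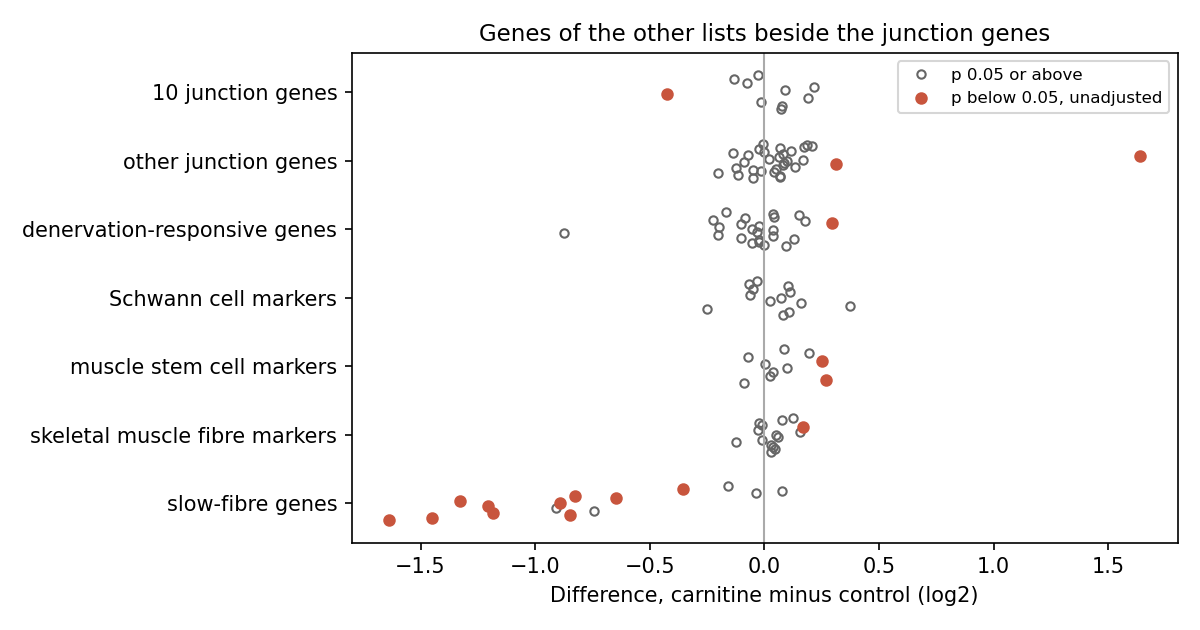
Difference of each measured gene, carnitine minus control (x axis, log2), in the 10 junction genes and in the other lists (y axis), with filled points for an unadjusted limma p under 0.05. In the slow-fibre list 14 of 15 genes lie below 0, while the junction genes lie on both sides.

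Markers of other cells and of fibre type were read beside these genes, since a piece of muscle holds nerve, stem cells and fibres, and in bulk RNA fewer cells of a kind and less RNA per cell cannot be told apart. How much endplate each piece held is not given in the labels. Of 15 slow-fibre genes, 14 had a negative difference (median -0.85), 10 of them with an unadjusted limma p under 0.05, against 3.83% of all genes in that direction, and 0 past the adjusted threshold. The list was chosen with earlier results of these data known. In each of those 10 genes carnitine replicates 1, 2 and 5 lay below every control, so the 10 share a pattern over the arrays and are not separate results. By the exact permutation test the lowest p of the list was 0.0556. Ankrd2 differed by -1.33 (SE 0.43), Csrp3 by -0.89 (SE 0.30), Atp2a2 by -1.21 (SE 0.47) and Tnnc1 by -1.45 (SE 0.57); on leaving out carnitine replicate 5, Atp2a2 stood at -0.76 and Tnnc1 at -0.92. The mean signal of the list was 7.48 to 9.54 in carnitine and 9.09 to 9.78 in control muscle, lowest in carnitine replicate 5. Over the 10 arrays, after group means were subtracted, it correlated with Dok7 (r = 0.799), Musk (r = -0.615), Chrng (r = 0.478), Rapsn (r = 0.413) and Chrne (r = -0.332). The value for Musk leans on carnitine replicate 5, which had the lowest list mean and the highest Musk signal, 9.35. The part of fibre make-up in the differences of the junction genes was not tested.

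Of 16 Schwann cell markers 13 were measured, 8 with a positive difference, none with an unadjusted limma p under 0.05. Their mean signal was 5.82 to 6.35 in carnitine and 5.88 to 6.08 in control muscle. The highest value was that of carnitine replicate 5, the mouse with the highest Musk signal. There Pmp22, a myelin protein gene also used by other cells, reached 9.25, against 7.61 to 8.50 on the other 9 arrays. S100b, Mbp, Mal, Cnp and Cdh19 were also highest on that array. Sox10, Ngfr, Gfap, Mag, Egr2, Ncmap and Gjc3 were not. The correlation of the Schwann list with Musk, after group means were subtracted, was r = 0.688, and it rests in large part on carnitine replicate 5. Sox10, the transcription factor of Schwann cells, was 6.16 on that array, the highest of its group, against 6.57 on control replicate 5. Its difference was -0.25 (SE 0.12), and Mbp and Egr2, of myelin and its control, differed by 0.11 and 0.10. Sox10 stood at -0.15 without control replicate 5, and Mbp at 0.0255 without carnitine replicate 5. Of 10 muscle stem cell markers 8 had a positive difference, with Myf5 at 0.27 (SE 0.12), Megf10 at 0.25 (SE 0.11), Cd34 at 0.20 (SE 0.13) and Pax7 at -0.09 (SE 0.094), and 2 had an unadjusted limma p under 0.05, against 3.14% of all genes in the higher direction. On leaving out control replicate 5, Myf5 stood at 0.17 and Pax7 at -0.0475, and on leaving out carnitine replicate 1, Cd34 stood at 0.11. Their mean signal was 7.07 to 7.18 in carnitine and 7.00 to 7.07 in control muscle. No marker of either list passed the adjusted threshold, and their part in the differences of the junction genes was not tested. Of the 15 fibre markers, Mylpf (0.17), Casq1 (0.13), Pvalb (0.15) and Des (0.08) had the smallest p, and 0 passed the adjusted threshold; Pvalb was 0.0635 without control replicate 4, and Des turned to -0.0024 after cyclic loess.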

How the data were processed

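Total RNA from 30 mg of frozen gastrocnemius was measured on Affymetrix Mouse Gene 2.0 ST arrays, 10 arrays in groups of 5. The authors deposited log2 values with 2 decimals for 34390 probe sets, made with RMA in Affymetrix Expression Console per the submitters' processing notes. The sources used here name neither versions nor a genome build. RMA scales arrays to one another, so a change in total RNA per sample is not visible, and differences of dim probe sets are shrunken. The deposited arrays still differed in median and range. Of the probe sets, 23521 had 1 gene symbol, 1814 several, and 9055 were not listed. The brightest probe set per gene gave 22180 genes.

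The groups were compared with limma 3.58.1 in R 4.3.3 (lmFit, eBayes with trend), two-sided, with Benjamini-Hochberg adjustment over all genes. No dim gene was removed. The median SE was 0.11, and the number of arrays limits the precision. The fit was also run on simulated data with 22180 genes, of which 200 were changed, with normal noise drawn separately for each gene. It recovered 63.6% of genes changed 1.5-fold and 94.6% of those changed 2-fold. The simulation lacked the array-wide shifts of the real data, so these shares may not hold for them. The 10 genes and the 6 other lists were chosen with earlier results of these data known, and the olfactory receptor comparison after values were seen. The text names all 10 genes, up to 4 genes per list with the smallest p, and the 5 genes most like Chrna1 and Chrng. Agrn, Ache, Gabpa, Gabpb1, Myog, Fbxo32 and Trim63 were added for their known roles after their values were seen. The remaining Schwann cell markers were also named after their values were seen. Same-numbered mice of the groups had deviations that correlated at -0.132 to 0.236, and the labels name nothing that the numbers share, so they were not treated as pairs. The alternatives are given in the closing section.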

Additional observations from a re-analysis of the deposited data

Results flagged for a closer look

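A value far from the other 4 of its group was found in 7 of 68 groups of arrays tested, over the 10 junction genes and the 24 genes named from the lists, where chance gives about 1 in 20. Among the junction genes these were Chrna1 on carnitine replicate 1 (7.10, others 7.40 to 7.50), Musk on carnitine replicate 5 (9.35, others 8.72 to 8.84) and Chrne on control replicate 3 (8.31, others 7.65 to 7.84). Among the other genes, Pmp22 stood at 9.25 on carnitine replicate 5 (others 8.11 to 8.26) and Etv4 at 6.10 on carnitine replicate 4 (others 5.88 to 5.94). Sox10 stood at 6.57 on control replicate 5 (others 5.98 to 6.10), and Myf5 at 5.84 on the same array (others 6.25 to 6.40). Chrnb1 on control replicate 1, the lowest value of that gene, was not among them.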

How the results depend on the processing

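The difference of Chrng stayed negative under every alternative run, from -0.52 without carnitine replicate 3 to -0.295 with array weights, where its unadjusted limma p was 0.0742, and Chrng minus Chrne differed by -0.78 to -0.45. Chrne, Rapsn and Chrna1 stayed positive, and Dok7 and Lrp4 negative, throughout. No junction gene passed the adjusted threshold under any alternative, and over all genes 0 to 1 passed when 1 array was left out, the 1 being B4galnt2 without control replicate 2. The count of junction genes with an unadjusted p under 0.05 was 2 with a replicate block, 0 with array weights and 0 to 3 with 1 array left out. The replicate block gave 1802 genes with such a p, against 1546, and 0 past the threshold; 2 of the 5 controls correlated best with their own number. The count of junction genes with a negative difference was 3 with array weights and after median centring, 7 after cyclic loess, 6 after quantile normalization, and 3 to 7 with 1 array left out. Over the other lists 16 genes had an unadjusted p under 0.05, 9 with robust eBayes, and 6 to 18 with 1 array left out. Signs turned for Chrnb1 (-0.02 after quantile normalization, -0.026 after cyclic loess, and -0.098 to 0.16 with 1 array left out), Chrnd (0.058 with array weights, 0.036 after median centring, and -0.084 to 0.0735 with 1 left out), Musk (-0.013 after cyclic loess, and -0.0465 to 0.15 with 1 left out), Ncam1 (0.012 with array weights, 0.02 after median centring, and -0.17 to 0.10 with 1 left out) and Des (-0.0024 after cyclic loess). The cause was not tested.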
